A study of Homo sapiens with 6 samples.

Results

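Uracil and oxidised bases are removed from DNA, or kept out of it, by a small set of enzymes, of which 5 were examined here: the uracil-DNA glycosylases Ung and Smug1, the oxidised-base glycosylase Neil2, the adenine glycosylase Mutyh and the nucleotide pool hydrolase Nudt1. They were followed in a pooled CRISPR screen in which each lentiviral construct carried 2 guide RNAs, which allows the loss of 2 genes in the same cell. All constructs in which either guide targets 1 of the 5 genes were taken. This gave 18470 of the 863546 constructs that had reads in at least 1 library, and 20 of the 1887 guides. The 5 genes are 5 of the 459 targeted.

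The cells were eHAP iCas9-cl#6, a clonal human line of near-haploid leukaemic origin with a doxycycline-inducible Cas9 and a p53 null genotype, and every group shares that background. They were transduced with the library at a multiplicity of infection of 0.15 and selected with puromycin. The cells grown on to day 14 or day 15 were held in doxycycline for their first 7 days. For the day 0 cells the labels give no length of doxycycline exposure, so induction of Cas9 and time in culture differ together between day 0 and the later groups. The 6 libraries form 3 groups of 2 replicates: control cells at day 0, control cells at day 14 after 12 population doublings of standard growth, and irradiated cells at day 15 after 10 population doublings. The irradiated cells received 0.6 Gy of X-rays 24 hours after each split, and the unirradiated cells received none. The guide locus was amplified by PCR from genomic DNA of the cells and sequenced. Reads of a construct are a PCR-amplified measure of how abundant the cells that carry it were, and not a count of cells. The labels do not say that the replicates come from separate transductions, so the p-values measure the spread between these libraries, which may be technical. The irradiated cells differ from the day 14 cells in days, doublings and treatment together, and these cannot be told apart.

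Base excision repair begins with a glycosylase that cuts the damaged base from its sugar, leaving an abasic site for an endonuclease, a polymerase and a ligase. Ung is the main enzyme for uracil, which arises when cytosine deaminates or when dUTP is used in replication, and Smug1 removes uracil and oxidised pyrimidines such as 5-hydroxymethyluracil. Neil2 removes oxidised pyrimidines with a preference for open DNA structures, Mutyh removes adenine placed opposite 8-oxoguanine, and Nudt1 hydrolyses 8-oxo-dGTP before a polymerase can use it. The files write the genes with mouse symbols, and all 5 matched a human gene by symbol in RefSeq (GRCh38.p14). UNG lies at chr12:109097597-109110992, SMUG1 at chr12:54158235-54188985, MUTYH at chr1:45329242-45340440, NUDT1 at chr7:2242226-2251145, and NEIL2 is on chromosome 8. Each gene had 4 guides, of which guides 1 and 2 were read at position 1 of the construct and guides 3 and 4 at position 2. Guide sequences and cut sites were not used here, so no guide can be placed in an exon, and loss of the proteins was not measured.

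The libraries held 61185707 to 86587125 reads, and constructs of the 5 genes took 2.06% of them in day 0 replicate 1 and 2.82% to 2.93% in the other 5 libraries. Coverage was uneven. Constructs of the 5 genes without a read made up 47.2% in day 14 replicate 1 and 42.7% in irradiated replicate 2, against 1.1% to 6.1% in the other 4 libraries. Of the 878 constructs made of 2 non-targeting guides, 69.7% and 66.6% had no read in those 2 libraries. The 2 libraries belong to different groups, and day 0 replicate 1 stands apart from the others in the share of reads that the 5 genes take.

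Single knockouts were read from constructs that pair a guide of the gene with a non-targeting guide, which numbered 122 for Ung, 120 for Smug1, 121 for Neil2, 118 for Mutyh and 121 for Nudt1. The level is the mean number of reads per such construct divided by the mean for the constructs with 2 non-targeting guides in the same library. It also depends on how much of each guide the library was built with, so it was compared between libraries and not between genes. In all 5 genes, day 0 replicate 1 had the lowest level of the 6 libraries.

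The uracil glycosylases come first. For Ung the level was 1.41 and 1.80 in the day 0 replicates, 1.81 and 2.01 at day 14, and 1.89 and 1.73 after irradiation. The irradiated range overlapped that of day 0, and the day 14 values lay above both day 0 values, the lower by very little. For Smug1 the level was 1.11 and 1.38 at day 0, 1.62 and 1.47 at day 14, and 1.56 and 2.00 after irradiation. Both later groups lay above day 0 without overlap. The highest Smug1 value was that of irradiated replicate 2, in which constructs with guide 3 alone held 7862 of the 14209 reads.

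For Neil2, the oxidised pyrimidine glycosylase, the level was 1.29 and 2.03 at day 0, 2.38 and 2.13 at day 14, and 2.08 and 2.41 after irradiation. Day 0 replicate 2 lay close under the later libraries, and day 0 replicate 1 far below them. For Mutyh the level was 0.94 and 1.27 at day 0, 1.30 and 1.27 at day 14, and 1.21 and 1.23 after irradiation. Apart from day 0 replicate 1, the Mutyh libraries lay within a narrow band. For Nudt1, which works on the nucleotide pool and not on DNA, the level was 0.89 and 1.26 at day 0, 1.49 and 1.25 at day 14, and 1.37 and 1.55 after irradiation. The day 14 range reached just below day 0 replicate 2, and the irradiated values lay above both.

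No single-knockout change passed the threshold of an adjusted p of 0.05 in any of the 3 comparisons, for the 5 genes or for any of the 459 genes tested (0.0% called in each; edgeR's quasi-likelihood test, Benjamini-Hochberg adjustment). Unadjusted p-values below 0.05 numbered 18, 12 and 13 of 459 genes in day 14 minus day 0, irradiated minus day 0 and irradiated minus day 14. From day 0 to day 14 the log2 change was 0.25 for Ung (SE 0.169), 0.31 for Smug1 (SE 0.180), 0.44 for Neil2 (SE 0.193), 0.22 for Mutyh (SE 0.189) and 0.36 for Nudt1 (SE 0.194). The adjusted p was 0.815 for each of them. All 5 values were above 0, as were 63.4% of all genes, whose median was 0.06. Position 1 guides alone gave -0.02 for Ung, 0.12 for Smug1, 0.21 for Neil2, 0.03 for Mutyh and -0.19 for Nudt1. Their SE was 0.391, 0.24, 0.217, 0.22 and 0.333 in the same order. Position 2 guides alone gave 0.36, 0.39, 0.65, 0.32 and 0.51 in that order. Only Ung and Nudt1 turned below 0 at position 1. For each gene the 95% interval at position 1 contained the position 2 value. Whether the positions differ was not tested. In day 14 replicate 1, which lacked many constructs, Nudt1 guide 1 had 37 reads, against 680 in replicate 2. Ung guide 2 had 326 and 1041. With guides of both positions, the groups did not overlap for Ung, Smug1 and Neil2. Of all genes, 18.3% had both day 14 libraries above both day 0 libraries.

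From day 0 to irradiated day 15 the log2 change was 0.17 for Ung, 0.52 for Smug1 (95% interval 0.138 to 0.892), 0.43 for Neil2, 0.14 for Mutyh and 0.45 for Nudt1, with an adjusted p of 0.974 in the same edgeR fit. Position 1 guides alone gave -0.23, 0.11, 0.04, 0.11 and 0.16 in that order, and position 2 guides alone 0.33, 0.67, 0.76, 0.16 and 0.54. The 95% interval at position 1 ended at 0.655 for Smug1 and at 0.531 for Neil2, below their position 2 values. For Ung, Mutyh and Nudt1 it contained the position 2 value. The groups did not overlap for Smug1, Neil2 and Nudt1, against 14.8% of all genes. Both comparisons use the same day 0 libraries, so they are not separate evidence. Without irradiated replicate 2 the Smug1 value was 0.32. Without day 0 replicate 1 the values for day 14 were 0.08, 0.16, 0.15, 0.02 and 0.13 for Ung, Smug1, Neil2, Mutyh and Nudt1, and for irradiated day 15 they were 0.01, 0.36, 0.15, -0.06 and 0.22. Without day 0 replicate 2 they were 0.44, 0.48, 0.80, 0.46 and 0.63 at day 14, and 0.36, 0.68, 0.80, 0.38 and 0.72 after irradiation. A lone library is assumed in these fits to vary like the other groups.

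Irradiated against day 14 cells gave log2 changes of -0.08 for Ung, 0.20 for Smug1, -0.01 for Neil2, -0.08 for Mutyh and 0.09 for Nudt1. These changes need no day 0 library, but their intervals and p-values use a spread shared by all 6 libraries. The adjusted p lay between 0.964 and 0.989 in the edgeR fit. The median of all genes was -0.08, and 35.7% of genes were above 0. The 95% interval reached from -0.43 to 0.28 for Ung and from -0.17 to 0.58 for Smug1, so changes within those limits cannot be told from 0. Mutyh was the only one of the 5 without overlap, with both irradiated values below both day 14 values, against 17.0% of all genes. With libraries scaled by their total count, its value was -0.01, and that of Neil2 turned to 0.07.

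The single knockouts hold few of each gene's reads. Summed over all partner guides, each of the 5 genes was read from 3688 to 3723 constructs. Over all 459 genes the median 95% half-width of a log2 change narrowed from 0.398 to 0.139. The intervals of the 5 genes did not narrow as much. From day 0 to day 14 those of Ung and Neil2 were wider than in the single knockouts. On this scale, with libraries normalised by TMM, the trimmed mean of M-values, Ung had 2514 and 3580 CPM (read counts divided by the scaled library size) at day 0, 3622 and 3655 at day 14, and 3553 and 3605 after irradiation. Smug1 had 2013 and 2820 CPM at day 0, 2925 and 2837 at day 14, and 2858 and 2830 after irradiation. In both genes 5 libraries lay close together, and day 0 replicate 1 lay far below them.

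Neil2 had 2257 and 3479 CPM at day 0, 3302 and 3497 at day 14, and 3437 and 3332 after irradiation. Nudt1 had 1685 and 2402 CPM at day 0, 2681 and 2411 at day 14, and 2399 and 2606 after irradiation. Mutyh had 1855 and 2409 CPM at day 0, 2619 and 2568 at day 14, and 2380 and 2374 after irradiation. In all 3, day 0 replicate 1 was again the lowest library. In Mutyh the irradiated libraries lay below both day 14 libraries, by a wider margin than in Ung.

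The log2 ratio of day 0 replicate 1 to day 0 replicate 2 was -0.62 for Neil2, which was the lowest of the 459 genes. It was -0.51 for Nudt1, -0.51 for Ung, -0.49 for Smug1 and -0.38 for Mutyh, which ranked 3, 4, 6 and 39 from the lowest.

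None of the 5 genes and none of the 459 was called in the all-partner sums (0.0% in each comparison; edgeR's quasi-likelihood test), with 18, 18 and 12 genes at an unadjusted p below 0.05. From day 0 to day 14 the log2 change was 0.26 for Ung, 0.25 for Smug1, 0.25 for Neil2, 0.28 for Mutyh and 0.32 for Nudt1 (adjusted p from 0.552 to 0.573). To irradiated day 15 it was 0.23, 0.24, 0.24, 0.16 and 0.29 in the same order (adjusted p from 0.625 to 0.634).

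Which day 0 library was used set the result. Without day 0 replicate 1, the changes to day 14 lay between -0.03 for Neil2 and 0.11 for Mutyh, and those to irradiated day 15 between -0.04 for Neil2 and 0.06 for Nudt1 (adjusted p 0.972 and 0.998, edgeR). Without day 0 replicate 2, all 5 genes passed the threshold in both comparisons, with changes of 0.48 to 0.60 at day 14 and 0.36 to 0.59 after irradiation. In that fit 164 of the 459 genes were called at day 14 and 154 after irradiation. Irradiated against day 14, the log2 change was -0.02 for Ung, -0.02 for Smug1, -0.01 for Neil2, -0.13 for Mutyh and -0.03 for Nudt1 (adjusted p = 0.995 in the edgeR fit). Both irradiated libraries lay below both day 14 libraries for Ung and Mutyh, against 17.2% of all genes. Without day 0 replicate 1 the intervals of that comparison narrowed to -0.10 to 0.05 for Ung, -0.10 to 0.06 for Smug1, -0.10 to 0.08 for Neil2 and -0.16 to 0.11 for Nudt1. That of Mutyh, -0.21 to -0.05, lay below 0 (adjusted p = 0.301, edgeR).

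The guides show where the difference between the day 0 replicates lies. For each guide, counts were summed over all partners and scaled by TMM within its position. Among the 891 guides tested at position 2, the log2 ratio of day 0 replicate 1 to replicate 2 fell into separate ranges. In 253 guides (28.4%) it lay between -0.87 and -0.53, in the others between -0.19 and 0.38, and in none between. At position 1 it was in the low range in 2 of 897 guides (0.223%). All 10 position 2 guides of the 5 genes were in the low range, from -0.80 for Ung guide 4 to -0.67 for Nudt1 guide 3. At position 1, 1 of their 10 guides was, Neil2 guide 2 with -0.71.

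The split went by gene. Of the 432 genes with 2 measured guides at position 2, 122 had both in the low range (28.2%) and 0 had only 1 of them there. The limit of -0.4 that separates the ranges was set after the values were seen. What sets the 122 genes apart in that library was not tested.

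At position 2, Ung guide 3 had 2006 and 3255 CPM at day 0, 3156 and 3194 at day 14, and 3132 and 3359 after irradiation, and Ung guide 4 had 1363 and 2374, 2584 and 2531, and 2374 and 2414. Smug1 guide 3 had 1612 and 2601 CPM at day 0, 2820 and 2617 at day 14, and 2633 and 2692 after irradiation. In all 3, the day 0 replicates differed more than day 0 replicate 2 and any later library did. Neil2 guide 2, at position 1, had 1388 and 2272 CPM at day 0, 1997 and 2303 at day 14, and 2148 and 1917 after irradiation. The other Neil2 guide at position 1 had 594 and 570, 595 and 592, and 565 and 526 CPM, with day 0 replicate 1 inside the range of the later libraries.

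Against day 0 replicate 2 alone, the 10 position 2 guides had median log2 ratios of 0.03 and 0.00 in the day 14 libraries and 0.01 and 0.05 in the irradiated ones. Over all 891 guides at that position the medians lay between -0.003 and 0.0. The widest of the 10 was Nudt1 guide 4, with 0.31 in day 14 replicate 1 and 0.26 in irradiated replicate 2, the libraries with many missing constructs, and 0.00 and 0.03 in the other 2. The 10 position 1 guides had medians of 0.01 and 0.04 at day 14, and of -0.02 and -0.11 after irradiation.

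In the test of 1788 guides none was called in any comparison (0.0%; edgeR's quasi-likelihood test), and 75, 56 and 81 had an unadjusted p below 0.05. The 10 position 2 guides of the 5 genes had log2 changes of 0.26 to 0.48 from day 0 to day 14 and of 0.30 to 0.46 to irradiated day 15. From day 14 to irradiated day 15 they lay between -0.10 and 0.08. At position 1, both Ung guides lay within 0.06 of 0 in all 3 comparisons, and both Smug1 guides between -0.12 and 0.04. Nudt1 guides 1 and 2 lay between -0.20 and 0.10. Neil2 guide 1 lay between -0.12 and 0.03, and Neil2 guide 2 between -0.08 and 0.23. Mutyh guide 2 lay between -0.135 and 0.185.

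Mutyh guide 1 stood apart from the other 19 guides. It had 1053 and 918 CPM at day 0, 1278 and 1218 at day 14, and 706 and 692 after irradiation. The 3 groups did not overlap, and 16.7% of all guides had both irradiated libraries below both day 14 libraries. The log2 change was 0.34 from day 0 to day 14 and -0.50 to irradiated day 15, and irradiated against day 14 it was -0.84 (95% interval -1.05 to -0.63, adjusted p = 0.0607 in the edgeR fit). It therefore missed the threshold with 0.0% of guides called. It passed in the same comparison without day 0 replicate 1 (adjusted p = 6.42e-05), without day 0 replicate 2 (6.5e-05), and with each position fitted apart (0.00183). Over all alternatives run the adjusted p ranged from 1.78e-15 with DESeq2 to 1.0 without irradiated replicate 2. The other Mutyh guide at position 1 gave -0.14 in that comparison, and Mutyh guides 3 and 4 gave 0.08 and 0.07.

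The value of Mutyh guide 1 came from a single construct, its pair with guide 4 of Rfwd3, a ubiquitin ligase of replication-fork repair. That construct had 32029 and 21311 reads at day 0, 31108 and 30281 at day 14, and 10 and 2 after irradiation. It was the most abundant construct of all in each of the 4 unirradiated libraries, where it held 27.4% to 41.7% of the guide's reads. In the irradiated libraries it held 0.02% and 0.0% of them. Without it the guide had 55062 and 56496 reads at day 0, 45902 and 42411 at day 14, and 49447 and 58413 after irradiation. Its log2 change from day 14 to irradiated day 15 was then -0.07 (95% interval -0.24 to 0.09), and that of Mutyh over all partners went from -0.13 to 0.03.

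The other 7 constructs of Mutyh with Rfwd3 showed no such pattern. They held at most 264 reads each in any library, and without the abundant construct the interaction was -0.79 from day 14 to irradiated day 15 (95% interval -2.34 to 0.76). With it, the interaction was -7.44 (95% interval -8.63 to -6.25, adjusted p = 0.262 in the edgeR fit). This was the pair of smallest p for Mutyh. It passed with limma-trend (adjusted p = 0.0168), with each day 0 replicate left out (0.0119 and 0.00958) and with the replicate block (0.0076), and over all alternatives its adjusted p ranged from 4.35e-129, without day 14 replicate 1 and irradiated replicate 2 together, to 1.0 without the construct of Mutyh guide 1 with Rfwd3 guide 4. It was the single construct of all 863546 with at least 500 reads in all 4 unirradiated libraries and fewer than 50 in both irradiated ones, and 0 constructs showed the opposite. The irradiated counts came in another combined table than the unirradiated ones, so irradiation and table cannot be told apart for it.

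Smug1 and Ung both remove uracil, and their pair asks whether cells that lose both fare otherwise than the single losses predict. The 8 constructs that join them had 854 and 1288 reads at day 0, 1092 and 1000 at day 14, and 1007 and 560 after irradiation. Their mean level, relative to constructs with 2 non-targeting guides, was 1.81 and 2.61 at day 0, 3.54 and 2.88 at day 14, and 2.47 and 1.18 after irradiation. Irradiated replicate 2 lay lowest and day 14 replicate 1 highest, and these are the libraries with many missing constructs.

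By construct, Smug1 guide 1 with Ung guide 3 had 65 and 200 reads at day 0, 340 and 119 at day 14, and 136 and 0 after irradiation. Smug1 guide 1 with Ung guide 4 had 83 and 207, 83 and 150, and 197 and 0. These 2 constructs share the Smug1 guide and were both at 0 in irradiated replicate 2, where 49.4% of all constructs had no read. From the sampling of reads alone, a count of 0 allows an expected count of up to 3. That limit does not cover the loss of constructs from a library. Ung guide 1 with Smug1 guide 3 had 173 and 202, 76 and 169, and 162 and 10 reads. Ung guide 2 with Smug1 guide 3 had 114 and 102, 0 and 130, and 101 and 63.

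The other 4 constructs had reads in every library, as did Ung guide 1 with Smug1 guide 3. Smug1 guide 2 with Ung guide 3 had 183 and 149 reads at day 0, 23 and 100 at day 14, and 156 and 107 after irradiation. Smug1 guide 2 with Ung guide 4 had 17 and 201, 42 and 122, and 88 and 129. Ung guide 1 with Smug1 guide 4 had 118 and 131, 196 and 183, and 97 and 144 reads, the steadiest of the 8. Ung guide 2 with Smug1 guide 4 had 101 and 96, 332 and 27, and 70 and 107. Replicates of 1 group thus differed widely for the same construct.

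The interaction of Smug1 with Ung is the log2 change of the double knockout beyond the sum of the changes of both genes over all their partners. It was -0.003 from day 0 to day 14 (SE 0.438, 95% interval -1.05 to 1.05) and -0.70 from day 0 to irradiated day 15 (SE 0.440, 95% interval -1.75 to 0.36, unadjusted p = 0.159 in the edgeR fit). From day 14 to irradiated day 15 it was -0.70 (SE 0.440, 95% interval -1.75 to 0.36, unadjusted p = 0.161 in that fit). No pair of the 105111 tested was called in any comparison (0.0%), and 452, 372 and 876 had an unadjusted p below 0.05 (0.43%, 0.354% and 0.833%). By library, the pair's log2 value beyond the additive fit was -0.03 and -0.41 at day 0, -0.14 and -0.30 at day 14, and -0.47 and -1.54 after irradiation. Irradiated replicate 2 was thus far below the other 5. Without irradiated replicate 2 the irradiated values were -0.26 against both day 0 and day 14, and without irradiated replicate 1 they were -1.33 against each. The intervals do not show that the double loss acts like the sum of the single ones, since they reach a change of more than 1 in log2 units.

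Among the other 9 pairs of the 5 genes, none passed the threshold in the edgeR fit (adjusted p from 0.97 to 1.0). Nudt1 with Smug1 had -1.33 from day 14 to irradiated day 15 (95% interval -2.84 to 0.17), from 1402 and 502 reads at day 14 and 577 and 309 after irradiation. Its values beyond the additive fit were 0.71 and -0.66 at day 14 and -0.69 and -1.82 after irradiation, so that day 14 replicate 2 lay close to irradiated replicate 1. Neil2 with Smug1 had 0.74 from day 0 to irradiated day 15 (95% interval -0.18 to 1.65), from 622 and 1369 reads at day 0 and 1314 and 2528 after irradiation. Neil2 with Ung had 0.42 (95% interval -0.36 to 1.19), with 748 and 1665 reads at day 0 and 1453 and 2370 after irradiation. In both of these Neil2 pairs the irradiated values beyond the additive fit lay above both day 0 values, against 17.5% of all pairs. In 4 of the 10 pairs, Smug1 with Ung, Nudt1 with Smug1, Mutyh with Nudt1 and Neil2 with Nudt1, they lay below both, against 17.6% of all pairs.

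For each gene the partner of smallest p in the pair fit was also read, out of 458 partners, and none was called. For Ung these were the break repair gene Brca1 with 1.67 from day 0 to day 14, the end-joining polymerase Polq with 1.15 to irradiated day 15, and the crosslink nuclease Dclre1a with -1.90 from day 14 to irradiated day 15. For Smug1 they were Parp1 with 1.05, Zfyve26 with 1.60 and Stub1 with -1.36. For Neil2 they were Alkbh1 with 1.13, Rad50 with 0.76 and Fignl1 with -1.32. For Nudt1 they were Polq with 1.92, Fbh1 with 1.10 and Marf1 with 1.37. For Mutyh they were Xrcc4 with 3.13 and, in both irradiated comparisons, Rfwd3. Between 0 and 6 of the 458 partners of a gene (0.0% to 1.31%) had an unadjusted p below 0.05 in a comparison. Over all pairs the share was 0.43%, 0.354% and 0.833% in the 3 comparisons. The median interaction of a gene lay between -0.01 and 0.07.

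Constructs with both guides against 1 of the 5 genes numbered 4 per gene, and their sums were not tested. Those of Neil2 had 357 and 1108 reads at day 0, 1801 and 753 at day 14, and 1036 and 1727 after irradiation. Those of Ung had 352 and 637, 257 and 335, and 456 and 380. Those of Smug1 had 477 and 333, 226 and 268, and 253 and 157, those of Mutyh 241 and 350, 672 and 222, and 211 and 853, and those of Nudt1 194 and 233, 140 and 108, and 193 and 102. Read counts of Smug1 and Nudt1, which are not scaled for library depth, lay below both day 0 values in all later libraries. For Nudt1 the closest were 194 reads at day 0 and 193 after irradiation. Relative to constructs with 2 non-targeting guides, Smug1 had 2.02 and 1.35 at day 0, 1.47 and 1.54 at day 14, and 1.24 and 0.66 after irradiation. The day 14 levels overlapped those of day 0. Both irradiated levels lay below both day 0 levels, the lower of them in irradiated replicate 2, which lacked many constructs. How many of all genes show such gaps, in reads or in levels, was not computed. Nudt1 had levels of 0.82 and 0.94 at day 0, 0.91 and 0.62 at day 14, and 0.95 and 0.43 after irradiation, which overlap.

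The wider base repair genes were read in the single knockouts. Of the 7 genes for oxidised bases (Ogg1, Mutyh, Nudt1, Neil1, Neil2, Neil3 and Nthl1), 0 were called in either direction in any comparison. Their median log2 change was 0.25 at day 14 against 0.06 for all genes, 0.14 after irradiation against 0.01, and -0.08 from day 14 to irradiated day 15 against -0.08. All 7 lay above 0 at day 14, with 0.26 for Neil3 and 0.25 for the pyrimidine glycosylase Nthl1. Ogg1, which removes 8-oxoguanine from DNA, had -0.30 after irradiation against day 0 and -0.31 against day 14. In 6 of the 7, all but Ogg1, both position 2 guides were in the low range of day 0 replicate 1, against 28.2% of all genes.

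Of the genes for uracil and deaminated bases, 6 of 8 were measured, and 0 were called. The thymine glycosylase Tdg had 0.28 at day 14 and 0.28 after irradiation, Mbd4 had -0.21 after irradiation, and Samhd1, which degrades nucleotides, had 0.18 at day 14. The alkylpurine glycosylase Mpg had -0.10 from day 14 to irradiated day 15. The median of the 6 was 0.21 at day 14 and 0.11 after irradiation against day 0. In the low range of day 0 replicate 1 were 4 of the 6, namely Ung, Smug1, Tdg and Mpg.

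The 18 genes of the later steps of base excision repair had 0 calls. Their medians were 0.07, 0.00 and -0.10 in the 3 comparisons, against 0.06, 0.01 and -0.08 for all genes, and 4 of them were in the low range. Xrcc1, the scaffold of the ligation step, had 0.47 at day 14. Xrcc1 was among those in the low range, and against day 0 replicate 2 alone its day 14 mean was 0.32. The flap endonuclease Fen1 had -0.17 at day 14 and -0.22 after irradiation, and the abasic endonuclease Apex2 had -0.34 from day 14 to irradiated day 15. The 8 mismatch repair genes also had 0 calls, with medians of 0.04, -0.03 and -0.09, and 4 of them were in the low range. Msh6, a subunit of a mismatch recognition complex, had 0.34 from day 0 to irradiated day 15. Msh6 was also in the low range, and against day 0 replicate 2 alone its irradiated mean was 0.22.

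The 3 genes whose single-knockout levels followed each gene most closely over the 6 libraries were Alkbh2, Smc2 and Xrcc3 for Ung (Pearson's r of 0.94 to 0.95), Dmc1, Usp51 and Marf1 for Smug1 (0.96 to 0.98), and Tonsl, Nudt1 and Neil1 for Neil2 (0.97 to 0.99). For Mutyh they were Ttc5, Neil2 and Neil1 (0.94 to 0.95), and for Nudt1 Tonsl, Tmem161a and Dmc1 (0.98 to 0.99). Every gene named here as most alike had both of its position 2 guides in the low range of day 0 replicate 1. Of the genes with both such guides measured, 28.2% did. The r values include that library, in which the position 2 guides of the examined genes were also low. Genes with the same drop therefore tend to rank high, and their share is not separate evidence. Some of them were named more than once, and Neil2 and Nudt1 are themselves examined genes. The r values share the same 6 libraries and their scaling, and they are a description without a test.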

How the data were processed

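The authors deposited raw read counts for each guide pair. HISAT2 2.1.0 and hg38 stand in the submitters' processing notes; how reads were counted is not given there. Unlisted pairs were set to 0. Own and combined tables differed in 0 pairs per library, and 2 columns that match no sample were not used. The authors' counts were summed per gene with non-targeting partners (mean at least 20, scaled by constructs with 2 non-targeting guides), per gene over all partners (at least 2000, TMM), per guide (at least 2000, TMM by position) and per gene pair (at least 20, offset from an additive median fit, prior count 2, 25 iterations). edgeR 4.0.16 (R 4.3.3) fitted all 6 libraries by group, two-sided. Benjamini-Hochberg adjustment ran over all features, with a threshold of 0.05. The tests were also run on simulated counts, for pairs without the offset. The simulated libraries had neither the missing constructs nor the low range of day 0 replicate 1, so that run does not cover them. DESeq2 1.42.0, limma 3.58.1, other scalings, single positions, a replicate block and left-out libraries were alternatives.

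The genes and lists were chosen with earlier results of these data known. Named are the 5 genes, their guides and pairs, the partner of smallest p per gene and comparison, up to 4 list genes of smallest p per comparison, and the 3 most alike genes. The construct of Mutyh with Rfwd3 and the low range of day 0 replicate 1 were singled out after their values were seen. Dut, on the uracil list, was not measured, and some list genes are not reported here. Replicate numbers did not pair the libraries.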

Additional observations from a re-analysis of the deposited data

Results flagged for a closer look

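The value of Mutyh guide 1 summed over all partners was -0.84 in log2 units from day 14 to irradiated day 15. It stands out because both day 14 libraries lay above the day 0 range and both irradiated libraries below it, a difference that missed the threshold of the edgeR test (adjusted p = 0.0607). The interaction of Mutyh with Rfwd3 was -7.44 from day 14 to irradiated day 15 (adjusted p = 0.262, edgeR) and stands out in the same way. Both rest on the construct of Mutyh guide 1 with Rfwd3 guide 4, without which they were -0.07 and -0.79.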

How the results depend on the processing

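Single-knockout calls for the 5 genes stayed at 0 in all alternatives run. In the all-partner sums, the changes from day 0 depended on which day 0 library was left out, as given above. Position 1 guides alone gave 1 call from day 14 to irradiated day 15, Mutyh at -0.55 (adjusted p = 0.00317, edgeR). That sum includes the construct of Mutyh guide 1 with Rfwd3 guide 4, and it was not refitted without it. For guides, DESeq2 called 1 of the 20 in each comparison, leaving out 1 library called 0 to 11, 0 to 12 and 0 to 1, and fitting each position apart called 1 from day 14 to irradiated day 15. Over all genes or guides, with counts for the day 14 change first, then for the irradiated libraries set against day 0 and lastly against day 14, calls without day 0 replicate 2 rose to 164, 154 and 1 genes and 297, 300 and 10 guides, and DESeq2 called 2, 2 and 1 genes and 24, 28 and 26 guides. Position 1 guides alone called 2, 2 and 8 genes, fitting each position apart called 2, 1 and 9 guides, and leaving out day 0 replicate 1 called 0, 0 and 1 genes and 3, 4 and 10 guides. Scaling by non-targeting guides called 0, 2 and 2 guides. In the single knockouts 22 genes were called from day 0 to day 14 without day 14 replicate 2. Without day 14 replicate 1 and irradiated replicate 2 together, 1, 3 and 0 single knockouts and 168, 1274 and 216 gene pairs were called, from lone libraries assumed to vary like day 0.

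For Smug1 with Ung, leaving out 1 library moved the interaction between -1.33 and -0.26 for irradiated against day 0 and between -1.33 and -0.26 against day 14; without both libraries that lack many constructs it was -0.26 and -0.17. With no offset for the genes' own effects the day 14 value was 0.44. The causes were not tested. Of the values for single genes, guides and pairs, 15 of 240, 19 of 240 (all partners), 53 of 900 and 48 of 378 changed sign under an alternative, and no called value did.

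Same-numbered libraries deviated together with r of 0.13, -0.03 and -0.54 between groups in the single knockouts. With the replicate block, 0 of the 5 genes and 0, 1 and 1 guides and gene pairs each were called, and the interaction of Smug1 with Ung was 0.02, -0.76 and -0.78. The crossed pairing, added after seeing the data, called 0, 1 and 1 gene pairs. Missing constructs in 2 libraries limit what single pairs can show.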
